A study of Homo sapiens with 8 samples.

Results

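The 41 genes described here are used as markers of astrocytes and neural progenitors, and they were followed in sorted human microglia. They were taken by symbol from the deposited count table, and all 41 were found among its 78899 Ensembl entries, each symbol with a single entry. The microglia came from H1, an established human embryonic stem cell line, although the labels also call them derived from induced pluripotent cells. The mono-culture group (4 libraries) held microglia kept alone with IL-34 at 100 ng/mL and M-CSF at 10 ng/mL. The tri-culture group (4 libraries) held microglia kept with other cells and without added cytokine. Both groups carried a GFP label, were recovered by fluorescence-activated sorting 2 weeks after plating and came from 4 batches, with 1 library of each group per batch. The labels do not name the partner cells, nor do they say whether astrocytes or progenitors were among them. The change of company and of cytokine supply cannot be told apart. By the labels, the microglia of all libraries come from a single cell line.

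Astrocytes are the glia that take up glutamate and potassium, regulate water balance and couple to one another through gap junctions. They arise from radial glia, the neural stem cells of the developing brain, which carry SOX2, PAX6, nestin and vimentin and are held in an undifferentiated state by Notch signalling. Radial glia and astrocytes share many transcripts, among them FABP7, SLC1A3 and vimentin, so the gene set spans both states. Microglia descend from yolk sac progenitors and do not share this origin. In bulk RNA from a sort, fewer cells of a type and less RNA per cell cannot be told apart.

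The libraries held between 17037481 counts and 33363972 counts. Microglia and macrophage markers were present in both groups: the summed level of a list of 14 such genes ran from 5606 to 6207 CPM (counts per 1000000 counts of the library) in mono-culture and from 7400 to 9068 CPM in tri-culture. Within it PTPRC, the pan-leukocyte phosphatase, stood at 598.9 ± 51.6 and 650.0 ± 31.8 CPM (SD, n = 4 each). Tri-culture library 1 stood apart for most of the genes described here, at a median of 48.6% of each gene's own tri-culture mean over the 24 tested genes with little or no signal in mono-culture. A list of 13 mesenchymal genes set the libraries apart in another order, with 24.3 CPM in tri-culture library 2 against 159.8 to 428 CPM in the other tri-culture libraries. Results are also given without single libraries where that changes them.

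The genes fell into 3 classes by their level in mono-culture. There were 17 with at most 3 counts summed over the mono-culture group (absent), 11 above that with a mean under 1 CPM (trace), and 13 with a mean of at least 1 CPM (expressed). AGT, at 0.893 CPM, was the highest trace gene and BCAN, at 1.14 CPM, the lowest expressed one. Of the 41 genes, 37 passed the filter on low counts, and 31 of these were higher in tri-culture, 3 lower and 3 not called (edgeR quasi-likelihood test, Benjamini-Hochberg adjusted p under 0.05 over all genes). Over the whole transcriptome 26.9% of the 16249 genes tested were called, 13.9% as higher and 13% as lower. The absent class says nothing beyond its definition in this test, since 100% of the 204 tested genes with so few mono-culture counts were called higher: a gene of that kind passes the filter only through tri-culture. Of the 11 trace genes 10 were called higher, against 21.9% of the 2640 tested genes at such a level, but most of these also passed the filter through tri-culture. The filter asks for 0.464 CPM in at least 4 libraries, and 14 of the 41 genes met it in mono-culture alone: AGT, MT2A and all expressed genes but CKB, which met it in 3 mono-culture libraries. Test values are therefore given for these 14, for CKB and for SLC1A2, which met the filter in 3 libraries of each group, and the other genes are described by their levels. Of the 14 genes 9 were higher and 3 lower, against 11% and 15.1% of the 13967 genes that met the filter in mono-culture alone. The median log2 fold change (tri-culture minus mono-culture) was 1.43 over the 13 expressed genes and 0.02 over all genes tested.

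**Figure D1:**
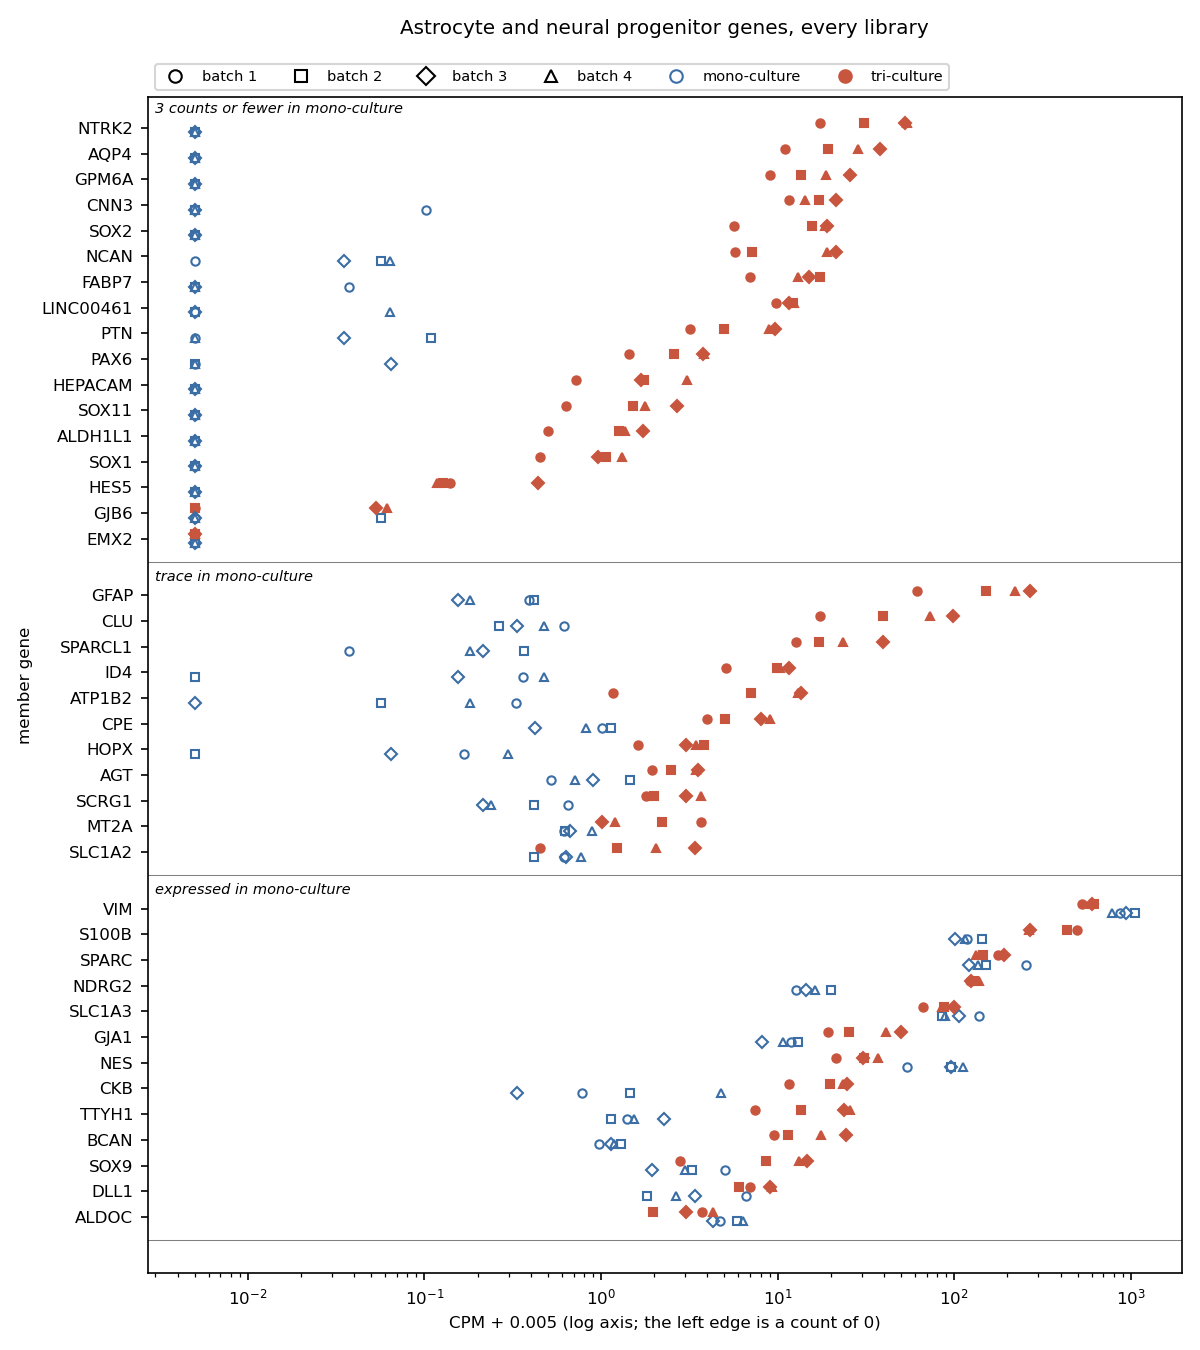
Each row is a gene and each symbol a library; the horizontal log axis is CPM plus 0.005, so that symbols at the left edge are counts of 0. Filled symbols are tri-culture and open symbols mono-culture, and the symbol shape gives the batch. Most absent and trace genes have their tri-culture symbols far to the right, with small shifts or none for EMX2, GJB6, SLC1A2, MT2A and AGT. VIM and NES have theirs to the left.

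Among the absent and trace genes the highest CPM in tri-culture was that of GFAP, the intermediate filament of astrocytes (ENSG00000131095, GRCh38 chromosome 17, 44903161 to 44916937, minus strand). Its level was 0.388, 0.415, 0.150 and 0.176 CPM in mono-culture libraries 1 to 4. In tri-culture libraries 1 to 4 it was 61.7, 150.8, 269 and 220.2 CPM. Every tri-culture library thus stood far above every mono-culture library, and tri-culture library 1 was the lowest. The ratio of the means was 622. GFAP alone made up 60.0% of the summed tri-culture level of the 11 trace genes.

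AQP4, the water channel of astrocyte end-feet (ENSG00000171885, chromosome 18, 26852038 to 26865818, minus strand), had no count in any mono-culture library. It stood at 11.03, 19.2, 38.2 and 28.7 CPM in tri-culture libraries 1 to 4. Against a floor of 3 counts over the mono-culture group (0.0298 CPM) this is at least 814-fold higher. HEPACAM, an adhesion molecule of astrocytes, likewise had no mono-culture count and reached 0.717, 1.76, 1.68 and 3.07 CPM. Exons of genes on the opposite strand cover 37.5% of its exon bases, and the use of strand in counting is not given in the sources used here. The same share was 18.4% for GFAP, 13.8% for BCAN and 10.1% for ALDOC. GPM6A, a membrane glycoprotein of neural cells, was at least 562-fold higher, at 9.01, 13.6, 25.6 and 18.7 CPM. ATP1B2, a beta subunit of the sodium-potassium ATPase of glia, had the widest spread in tri-culture: libraries 1 to 4 held 1.17, 7.02, 13.5 and 13.1 CPM, against 0.138 ± 0.144 CPM in mono-culture. GJB6, the gap junction protein connexin 30, stayed at the detection limit with 1 count in mono-culture and 2 in tri-culture, a ratio of 2.36 with a 95% counting interval of 0.123 to 139.

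Neither glutamate transporter of astrocytes was called. SLC1A2 (GLT-1), the main transporter of mature astrocytes, stood at 0.614, 0.415, 0.629 and 0.763 CPM in mono-culture. In tri-culture libraries 1 to 4 it was 0.448, 1.22, 3.41 and 2.05 CPM, so that library 1 lay within the mono-culture range and the other libraries above it. It did not pass (edgeR log2 fold change 1.43, SE 0.51, adjusted p = 0.0552), but was called higher without tri-culture library 1 (adjusted p = 0.00675), and it was also called with DESeq2 (adjusted p = 0.0307). SLC1A3 (GLAST), the transporter of radial glia and astrocytes, was already at 138.9, 85.6, 106.2 and 88.5 CPM in mono-culture. Its tri-culture levels of 66.1, 87.3, 100.3 and 85.0 CPM overlapped these (edgeR log2 fold change -0.41, SE 0.16, adjusted p = 0.0796). Without a filter on low counts it was called lower (adjusted p = 0.0165).

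Among enzymes and binding proteins, FABP7, the brain fatty acid-binding protein of radial glia, had 1 count in mono-culture and 6.99, 17.4, 15.1 and 13.0 CPM in tri-culture. The count ratio was 1328 with a 95% interval of 238 to 52481. It is among the few genes that peaked in tri-culture library 2. ALDH1L1, the folate enzyme used as a pan-astrocyte marker, had no mono-culture count and only 0.493, 1.27, 1.73 and 1.36 CPM in tri-culture, which is at least 40.7-fold higher. CPE, the carboxypeptidase that processes neuropeptides, went from 0.846 ± 0.313 to 6.55 ± 2.43 CPM. MT2A, a metallothionein that binds zinc and copper, was the exception in order: its tri-culture levels were 3.68, 2.20, 1.01 and 1.19 CPM, highest in library 1, where GFAP was lowest. Its mono-culture levels lay between 0.614 and 0.880 CPM. It was called higher (edgeR log2 fold change 1.49, SE 0.45, adjusted p = 0.0266), but not without tri-culture library 1 (adjusted p = 0.0972) or 2 (0.0580) or mono-culture library 1 (0.0655), 2 (0.0659) or 3 (0.0625). Of 8 other metallothioneins 1 was tested, MT1F, and it was not called (0.792 ± 0.213 and 0.543 ± 0.337 CPM, edgeR, adjusted p = 0.451); metallothionein copies are near-identical, so single values are uncertain.

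The secreted and matrix proteins spanned all 3 classes. CLU, the extracellular chaperone clusterin, went from 0.418 ± 0.157 CPM to 17.4, 39.5, 98.5 and 72.5 CPM in tri-culture libraries 1 to 4. SPARCL1 (hevin), which promotes synapse formation, went from 0.195 ± 0.136 CPM to 12.6, 17.1, 39.4 and 23.5 CPM. Both were lowest in library 1 and highest in library 3, as GFAP was. NCAN, the perineuronal matrix proteoglycan neurocan, had 3 counts over the mono-culture group and 5.74, 7.19, 21.5 and 18.9 CPM in tri-culture. Its close relative BCAN, brevican, was already at 1.14 ± 0.135 CPM in mono-culture and rose to 15.7 ± 6.77 CPM (edgeR log2 fold change 3.67, SE 0.29, adjusted p = 1.49e-06). PTN, the growth factor pleiotrophin, had 3 mono-culture counts and 6.69 ± 3.11 CPM in tri-culture. AGT, angiotensinogen, and SCRG1, a small secreted protein, had the smallest ratios among the secreted trace genes, at 3.20 and 6.98 (tri-culture mean over mono-culture mean). AGT was called higher (edgeR log2 fold change 1.58, SE 0.36, adjusted p = 0.00538). SPARC, the matrix protein that binds collagen, was abundant in both groups: 257, 151.8, 121.8 and 136.6 CPM in mono-culture against 176, 145, 191 and 133 CPM in tri-culture, with overlapping groups (edgeR, adjusted p = 0.690).

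Of the progenitor transcription factors that were absent in mono-culture, SOX2, PAX6, SOX11 and SOX1 were detected in every tri-culture library. SOX2, which maintains neural stem cells (ENSG00000181449, chromosome 3, 181711924 to 181714436, plus strand), had no mono-culture count and 5.65, 15.6, 19.1 and 18.5 CPM in tri-culture, which is at least 494-fold higher. PAX6, a patterning factor of radial glia, had 2 counts in mono-culture and 1.43, 2.57, 3.75 and 3.81 CPM in tri-culture, a count ratio of 142 (95% interval 38.8 to 1177). Opposite-strand exons cover 26.1% of its exon bases. SOX11, a factor of immature neurons, reached 0.628, 1.51, 2.69 and 1.76 CPM with no mono-culture count. SOX1, a factor of the early neural plate, had no mono-culture count and reached 0.448, 1.06, 0.962 and 1.31 CPM, at least 31.7-fold higher, but failed the filter on low counts. EMX2, a factor of the dorsal telencephalon, had no count in any of the 8 libraries, which allows up to 0.0298 CPM over the mono-culture group and 0.0352 CPM over the tri-culture group, for counting error only.

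Regulators that were at a trace level in mono-culture included ID4, an inhibitor of differentiation, and HOPX, a marker of outer radial glia. ID4 went from 0.244 ± 0.210 to 9.22 ± 2.83 CPM, a ratio of the means of 37.8. HOPX went from 0.129 ± 0.128 to 2.99 ± 0.973 CPM, a ratio of 23.2. NTRK2, the BDNF receptor TrkB (ENSG00000148053, chromosome 9, 84668551 to 85027070, plus strand), had no count in mono-culture and 17.3, 30.9, 52.9 and 53.7 CPM in tri-culture. It made up 23.6% of the summed tri-culture CPM of the 17 absent genes. CNN3, an actin-binding calponin, had 3 mono-culture counts and 11.6, 17.2, 21.5 and 14.3 CPM in tri-culture. LINC00461, a long noncoding RNA of the brain, had 1 mono-culture count and the most even tri-culture levels of the absent genes, at 9.77, 12.2, 11.5 and 12.4 CPM.

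Promoter windows of 4 of the 41 genes are shown as examples. FABP7, GPM6A and PAX6, like other absent genes, were near or at 0 in every mono-culture library, whereas NES was lower in tri-culture. The windows are from RefSeq (GRCh38.p14), run from 250 bases before to 50 bases after the gene start and are written 5′ to 3′ on the gene's strand. Capitals mark the short motif of nuclear factor I (TTGGC or GCCAA) and the core bound by SOX factors (ACAAT or ATTGT), searched on both strands.
FABP7 (chr6:122779466-122779765, plus strand): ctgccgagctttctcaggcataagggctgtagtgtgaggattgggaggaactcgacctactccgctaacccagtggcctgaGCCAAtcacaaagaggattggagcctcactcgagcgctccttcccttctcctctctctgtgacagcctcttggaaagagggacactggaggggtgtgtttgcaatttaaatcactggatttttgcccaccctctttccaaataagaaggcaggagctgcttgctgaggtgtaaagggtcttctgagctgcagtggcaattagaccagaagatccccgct
GPM6A (chr4:176002344-176002643, minus strand): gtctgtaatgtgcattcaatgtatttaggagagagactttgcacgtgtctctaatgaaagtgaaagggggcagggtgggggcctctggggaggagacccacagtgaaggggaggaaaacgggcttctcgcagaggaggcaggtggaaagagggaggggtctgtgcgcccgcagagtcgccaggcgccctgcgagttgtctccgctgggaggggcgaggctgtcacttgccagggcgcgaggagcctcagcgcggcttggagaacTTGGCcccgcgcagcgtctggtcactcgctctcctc
PAX6 (chr11:31817912-31818211, minus strand): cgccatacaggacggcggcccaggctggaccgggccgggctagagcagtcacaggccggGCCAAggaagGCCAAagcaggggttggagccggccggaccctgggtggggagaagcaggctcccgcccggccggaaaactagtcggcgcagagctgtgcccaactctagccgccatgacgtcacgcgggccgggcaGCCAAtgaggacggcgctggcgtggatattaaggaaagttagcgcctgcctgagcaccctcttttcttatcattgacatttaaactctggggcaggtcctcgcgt
NES (chr1:156677358-156677657, minus strand): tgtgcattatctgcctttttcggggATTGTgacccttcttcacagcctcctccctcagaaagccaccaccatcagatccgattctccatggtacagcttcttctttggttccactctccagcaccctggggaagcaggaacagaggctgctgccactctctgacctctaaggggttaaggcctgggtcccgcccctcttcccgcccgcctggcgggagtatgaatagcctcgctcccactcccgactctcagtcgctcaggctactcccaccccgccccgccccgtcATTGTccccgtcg
The windows of FABP7 and GPM6A each held 1 nuclear factor I motif and that of PAX6 held 3, whereas that of NES held none of these and 2 SOX cores. This contrast depends on the examples shown. The absent genes SOX2, AQP4, NTRK2, PTN, SOX1 and EMX2 had no nuclear factor I motif. The absent genes AQP4, HEPACAM, HES5 and EMX2 had a SOX core. Of the other lower genes, ALDOC had a SOX core and VIM had none. RefSeq windows were matched for 32 of the 41 genes, the others being NCAN, GFAP, SOX9, SLC1A2, S100B, SOX11, LINC00461, DLL1 and CLU. The nuclear factor I motif was found in 13 of 22 matched absent or trace genes (59.1%) and in 45.6% of all 35097 windows, and the SOX core in 4 of the 22 (18.2%) and in 27.4% of all windows. The units differ: 9 of the 32 matched genes had several windows and only the first was read, whereas the total counts every window of a gene. The form GCCAA can also be part of a CCAAT box. Letters of this length are common, and a match is only a description of the window.

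The 13 genes expressed in mono-culture moved in both directions. Of these, 8 were higher, against 11% of the 13405 tested genes with at least 1 CPM in mono-culture, and 3 were lower, against 15.5%. NDRG2, a stress-responsive member of the NDRG family and an astrocyte marker (ENSG00000165795, chromosome 14, 21016763 to 21070872, minus strand), stood at 12.6, 20.2, 14.4 and 16.3 CPM in mono-culture. In tri-culture it was 123.5, 128.9, 125.0 and 139.0 CPM, 8.14-fold higher and without the low value in library 1 (edgeR log2 fold change 2.93, SE 0.15, adjusted p = 4.09e-08). S100B, a calcium-binding protein of astrocytes (chromosome 21, 46598962 to 46605208, minus strand), was already at 117.8, 144.5, 101.2 and 115.0 CPM in mono-culture. It rose to 495, 436, 268 and 264 CPM in tri-culture (edgeR log2 fold change 1.53, SE 0.23, adjusted p = 0.000264). Its order over the tri-culture libraries was the reverse of that of GFAP in that libraries 1 and 2 were the high ones.

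CKB, the brain creatine kinase, rose from 0.776, 1.45, 0.330 and 4.75 CPM to 11.6, 19.9, 24.8 and 23.6 CPM (edgeR, adjusted p = 0.000472). TTYH1, a chloride channel family member of glia, rose from 1.58 ± 0.489 to 17.6 ± 8.64 CPM (edgeR log2 fold change 3.33, SE 0.35, adjusted p = 1.49e-05). GJA1, the gap junction protein connexin 43, rose from 11.9, 13.1, 8.18 and 10.7 CPM to 19.4, 25.4, 49.6 and 41.1 CPM, with no overlap between the groups (edgeR log2 fold change 1.51, SE 0.25, adjusted p = 0.000580). SOX9, the gliogenic SOX factor, stood at 5.04, 3.27, 1.95 and 2.99 CPM in mono-culture, as against 2.78, 8.62, 14.7 and 13.2 CPM in tri-culture. The groups overlapped through tri-culture library 1, and within batch 1 SOX9 was lower in tri-culture (log2 ratio -0.86) while it was higher in the other batches (1.40 to 2.91). It was called higher (edgeR, adjusted p = 0.0220), but not with the batch as a block (adjusted p = 0.101). It also missed the threshold on leaving out mono-culture library 2, 3 or 4 or tri-culture library 3 or 4 (0.0594 to 0.0766).

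**Figure D2:**
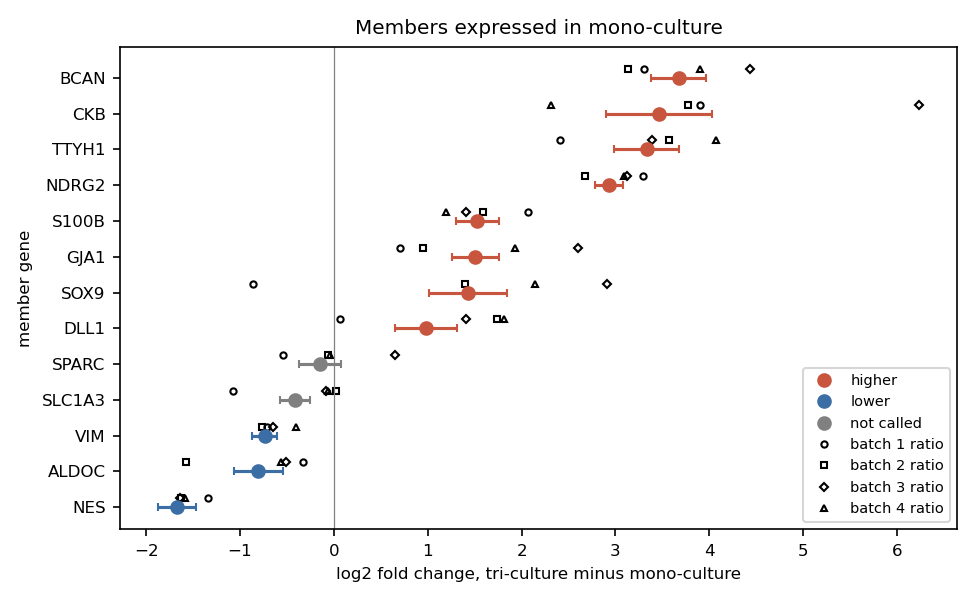
The horizontal axis is the log2 fold change of tri-culture minus mono-culture for the 13 genes with at least 1 CPM in mono-culture; large points are edgeR estimates with bars of 1 SE, and small open symbols are the log2 CPM ratios within each batch. BCAN, at 3.67, has the highest estimate and NES, at -1.67, the lowest, and the batch 1 ratio of SOX9 lies below 0.

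The lower genes were the intermediate filament genes NES and VIM and a glycolytic enzyme. Although used as progenitor markers, NES and VIM were expressed in mono-culture, where SOX2 had no count. NES, nestin (ENSG00000132688, chromosome 1, 156668763 to 156677397, minus strand), fell from 54.1, 95.5, 95.3 and 111.8 CPM in mono-culture to 21.4, 30.8, 30.5 and 37.2 CPM in tri-culture (edgeR log2 fold change -1.67, SE 0.20, adjusted p = 4.11e-05). VIM, vimentin (ENSG00000026025, chromosome 10, 17228259 to 17237593, plus strand), fell from 871, 1055, 943 and 783 CPM to 532, 619, 603 and 593 CPM (edgeR log2 fold change -0.74, SE 0.13, adjusted p = 0.00102), with opposite-strand exons over 24.4% of its exon bases. For both genes every tri-culture library lay below every mono-culture library. ALDOC, the brain aldolase, stood at 4.69, 5.86, 4.32 and 6.40 CPM in mono-culture, as against 3.72, 1.96, 3.03 and 4.32 CPM in tri-culture. Its groups touched at 4.32 CPM. It was called lower (edgeR log2 fold change -0.81, SE 0.26, adjusted p = 0.0356), but not with library size only (adjusted p = 0.0698) or upper quartile factors (0.0578). Leaving out mono-culture library 1, 2 or 4 or tri-culture library 2 or 3 also ended the call (0.0510 to 0.101).

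Notch signalling, in which a ligand on one cell activates a receptor on its neighbour, was represented by the ligand DLL1 and the target HES5. DLL1 was at 6.63, 1.82, 3.42 and 2.64 CPM in mono-culture, as against 6.95, 6.04, 9.04 and 9.26 CPM in tri-culture. It was called higher (edgeR log2 fold change 0.98, SE 0.33, adjusted p = 0.0434), but not on leaving out mono-culture library 2, 3 or 4 or tri-culture library 1, 3 or 4 (adjusted p = 0.0543 to 0.127). HES5, a repressor that keeps progenitors undifferentiated, had no mono-culture count and 17 counts over the tri-culture group, at 0.134, 0.122, 0.433 and 0.114 CPM, and was not tested. Of 18 other Notch genes 10 met the filter in mono-culture alone, and 2 of these were higher (NOTCH1 and MFNG) and 3 lower. The shares over all such genes were 11% and 15.1%. The target HES1, with 4 mono-culture counts, went from 0.0366 ± 0.0283 to 3.15 ± 1.02 CPM, whereas the receptor NOTCH2 fell from 241 ± 59.1 to 117 ± 29.1 CPM. The modulator LFNG fell from 19.9 ± 3.91 to 11.2 ± 1.68 CPM and the coactivator MAML2 from 70.1 ± 8.56 to 50.1 ± 7.14 CPM.

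Levels were compared between genes on the deposited length-scaled values, a table named TPM by the authors whose library totals are not those of true TPM. On this scale the order in tri-culture was led by GFAP (53.8 ± 26.2), followed by CLU (26.2 ± 15.9), SOX2 (20.3 ± 8.13), CNN3 (19.9 ± 5.04), FABP7 (18.4 ± 6.36) and AQP4 (14.1 ± 6.44). The spread over libraries was wide enough that the ranges of neighbours from GFAP to AQP4 overlapped. Within each tri-culture library GFAP nevertheless stood above CLU, at 20.2, 48.8, 82.3 and 64.0 against 8.59, 19.2, 45.3 and 31.8 in libraries 1 to 4. The order of CLU and SOX2 was less steady, with SOX2 above CLU in library 2 (22.6 against 19.2). NTRK2, the first of the absent genes in CPM, stood at only 4.02 ± 1.68 on the length-scaled values. The lowest values in tri-culture among absent genes that passed the filter were those of PAX6 (0.484 ± 0.170) and ALDH1L1 (0.278 ± 0.114). For comparison, AIF1, a microglia marker, stood at 1207 ± 390 on the same scale in tri-culture. The 28 absent and trace genes together made up 0.0115%, 0.0212%, 0.0361% and 0.0294% of the length-scaled total in tri-culture libraries 1 to 4, and at most 0.000607% in mono-culture.

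**Figure D3:**
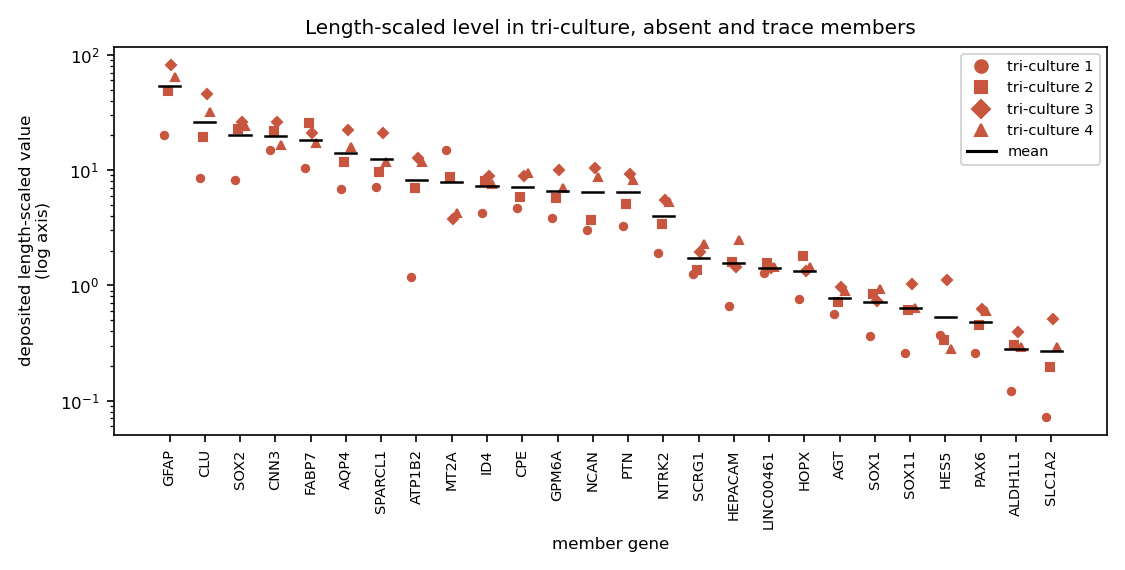
The vertical log axis is the deposited length-scaled value in tri-culture for 26 absent and trace genes, ordered by their mean (black line); symbols are the 4 tri-culture libraries. GFAP leads at a mean of 53.8, and library 1 (circles) is the lowest for most genes but the highest for MT2A.

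Most absent and trace genes were lowest in the same tri-culture library. Summed over the 28, their level was 195.6, 388, 680.5 and 561 CPM in tri-culture libraries 1 to 4, against 3.84 to 5.40 CPM over mono-culture. Of the 24 tested, 23 were lowest in library 1, MT2A being the other, and 15 were highest in library 3. The ratio of libraries 3 and 4 to libraries 1 and 2 had a median of 1.91 and ran from 0.375 for MT2A to 3.26 for SLC1A2. The same ratio had a median of 1.47 over 758 other genes that were absent or at a trace level in mono-culture and called higher, of which 58.2% were lowest in library 1. For absent genes alone the median was 1.92 over the 13 tested genes of the set, all lowest in library 1. It was 1.61 over 191 other absent genes called higher, of which 73.8% were lowest in library 1. Over all genes tested the median was 1.09, and 35.1% were lowest in library 1. Among the 24 genes of the set, the highest and lowest tri-culture library differed by a median of 3.11-fold per gene, from 1.27-fold for LINC00461 to 11.6-fold for ATP1B2. FABP7, CNN3, HOPX and LINC00461, with ratios of 1.15, 1.24, 1.19 and 1.09, had the ratios nearest to 1, while CLU and NCAN, at 3.01 and 3.13, differed about as much as ATP1B2 (3.25). These profiles rest on 4 libraries, in each of which the genes share depth and composition, and no test was made on them.

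**Figure D4:**
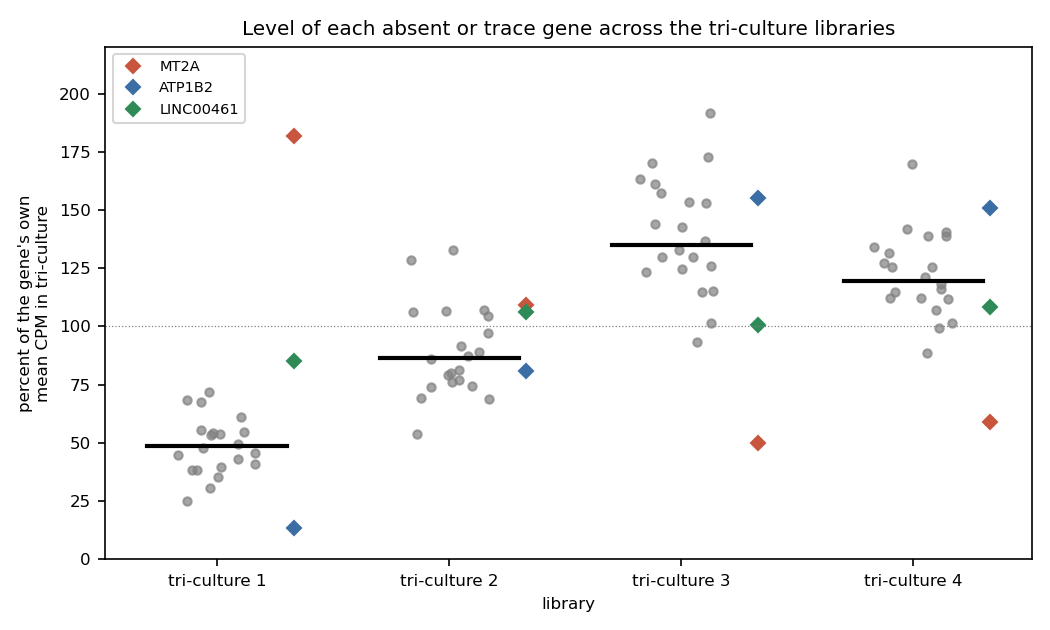
Each point is 1 of 24 absent or trace genes and gives its CPM in a tri-culture library as a percent of its own mean over the 4; black lines are medians over the 24 genes and coloured diamonds mark MT2A, ATP1B2 and LINC00461. The medians are 48.6%, 86.5%, 134.7% and 119.7% in libraries 1 to 4, and MT2A runs the other way.

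Further genes of the same cell types, from lists that do not hold the 41 genes, were read beside them. For scale, 13.9% of all genes tested were higher and 13% lower, and 11% and 15.1% of those meeting the filter in mono-culture alone. Of 18 other astrocyte genes 12 were tested, of which 8 were higher and 2 lower, but only 5 met the filter in mono-culture alone. Of these, CHI3L1 (6.98 ± 2.74 to 27.4 ± 16.2 CPM) and NFIA (2.09 ± 0.230 to 5.84 ± 2.24 CPM) were higher and the endothelin receptor gene EDNRB (46.6 ± 28.9 to 14.8 ± 3.18 CPM) was lower. GLUL, glutamine synthetase, was abundant in both groups (569.9 ± 61.1 and 559 ± 55.4 CPM), and neither it nor ITGA7 was called. The other lower gene was RANBP3L (2.41 ± 2.27 to 0.266 ± 0.197 CPM). The genes named next passed the filter through tri-culture. NFIB, a nuclear factor I family member that drives gliogenesis, went from 0.0386 ± 0.0458 to 11.4 ± 4.90 CPM, and MLC1, an astrocyte membrane protein, from 0.502 ± 0.456 to 13.2 ± 6.36 CPM. KCNJ10, the potassium channel Kir4.1, had no mono-culture count and 2.21 ± 0.990 CPM in tri-culture. SLC4A4, a bicarbonate transporter, went from 0.292 ± 0.120 to 3.21 ± 1.12 CPM. Of 20 other progenitor genes 9 were tested. The 5 that were higher (PTPRZ1, LIFR, PROM1, ZIC1 and POU3F2) had at most 1 mono-culture count, so that the filter fixed their calls. Of the 4 that met the filter in mono-culture alone none was higher, HMGA2 and LIN28B were lower, and TNC and GLI3 were not called. PTPRZ1, the receptor phosphatase of radial glia, had no mono-culture count and 14.4 ± 7.62 CPM in tri-culture, and POU3F2, a neural POU factor, had none and 5.13 ± 1.81 CPM. LIFR, the receptor for leukaemia inhibitory factor, had 1 mono-culture count and 3.16 ± 1.32 CPM in tri-culture. HMGA2, a chromatin protein of fetal progenitors, fell from 101 ± 20.7 to 22.8 ± 6.61 CPM, and LIN28B, a regulator of let-7 processing, from 25.5 ± 5.60 to 18.1 ± 2.01 CPM.

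Lists for neurons, oligodendrocytes, ependyma and mesenchyme were read in the same libraries, and their part in the levels above was not tested. Over all genes tested 13.9% were called higher and 13% lower, and 11% and 15.1% among genes that met the filter in mono-culture alone. Of 18 neuronal genes 7 were tested, 4 higher and 2 lower, and the summed level of the list was 27.4 to 46.7 CPM in mono-culture and 30.8 to 64.0 CPM in tri-culture. Of the 4 that met the filter in mono-culture alone, the RNA-binding protein gene ELAVL4 rose from 3.78 ± 1.29 to 18.2 ± 3.10 CPM and MAP2 was not called. The synaptic vesicle gene SYT1 fell from 15.1 ± 5.81 to 4.17 ± 1.57 CPM and the vesicular glutamate transporter gene SLC17A7 from 2.08 ± 0.219 to 0.437 ± 0.201 CPM. The other higher genes, GAP43, STMN2 and NEFL, had at most 2 mono-culture counts, and GAP43, of growing axons, was at 6.87 ± 2.45 CPM in tri-culture. The untested genes differed. NEUROD1, NEUROD6 and GAD2 were at 0 in all libraries, and TUBB3 had 12 mono-culture and 4 tri-culture counts. DCX, ELAVL3 and NEFM had 0, 1 and 10 mono-culture counts. In tri-culture these reached 1.31 ± 0.913, 1.61 ± 1.05 and 1.26 ± 0.749 CPM. Of 12 oligodendrocyte genes 5 met the filter in mono-culture alone, of which MBP was higher and CSPG4 lower, with sums of the list of 243.6 to 280.3 CPM and 330.8 to 399.8 CPM; MOG and NKX2-2 were at 0. Of 6 choroid plexus and ependymal genes 4 were tested, 3 higher and 1 lower, with sums of 1.17 to 1.40 CPM and 3.86 to 10.7 CPM; TTR was at 0. The only one of these 4 to meet the filter in mono-culture alone, CLIC6, fell from 0.873 ± 0.175 to 0.0671 ± 0.0778 CPM. FOXJ1, the regulator of motile cilia, had no mono-culture count and 4.08 ± 1.27 CPM in tri-culture, and the other higher genes, RSPH1 and PIFO, had 3 and 17 mono-culture counts.

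The mesenchymal list stood in another order over the tri-culture libraries. Of 13 genes 8 were tested, 3 higher (COL6A3, TAGLN and RGS5) and none lower, against 13.9% and 13% of all genes tested. These 3 were among 7 that met the filter in mono-culture alone, where the shares were 11% and 15.1%. COL1A1, COL5A1, DCN, LUM and PDGFRB were not tested, as they met the cutoff in only 3 libraries, all tri-culture. The means of DCN, LUM and COL1A1 went from 0.101, 0.0998 and 0.133 CPM to 28.5 ± 30.3, 16.1 ± 16.4 and 21.4 ± 20.8 CPM. The list stood at 20.1 to 39.8 CPM in mono-culture, as against 385, 24.3, 428 and 159.8 CPM in tri-culture libraries 1 to 4. COL3A1, a fibrillar collagen, had no count in tri-culture library 2 and 89.4 to 236 CPM in the other tri-culture libraries, whereas GFAP stood at 150.8 CPM in library 2. COL3A1 was not called (edgeR, adjusted p = 0.0505). Genes of pluripotent cells were near the detection limit, with sums of 0.104 to 0.352 CPM in mono-culture and 0.0408 to 0.448 CPM in tri-culture over 6 genes, none of which was tested. Of the 14 microglia genes, all tested, 5 were higher and 1 lower, against 13.9% and 13% of all genes tested. CX3CR1 rose from 116 ± 29.4 to 868 ± 261 CPM, ITGAM fell from 167 ± 34.7 to 64.5 ± 37.6 CPM, and CSF1R (1342 ± 98.9 and 1896 ± 593 CPM) and AIF1 (346.8 ± 47.4 and 424 ± 118 CPM) were not called.

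**Figure D5:**
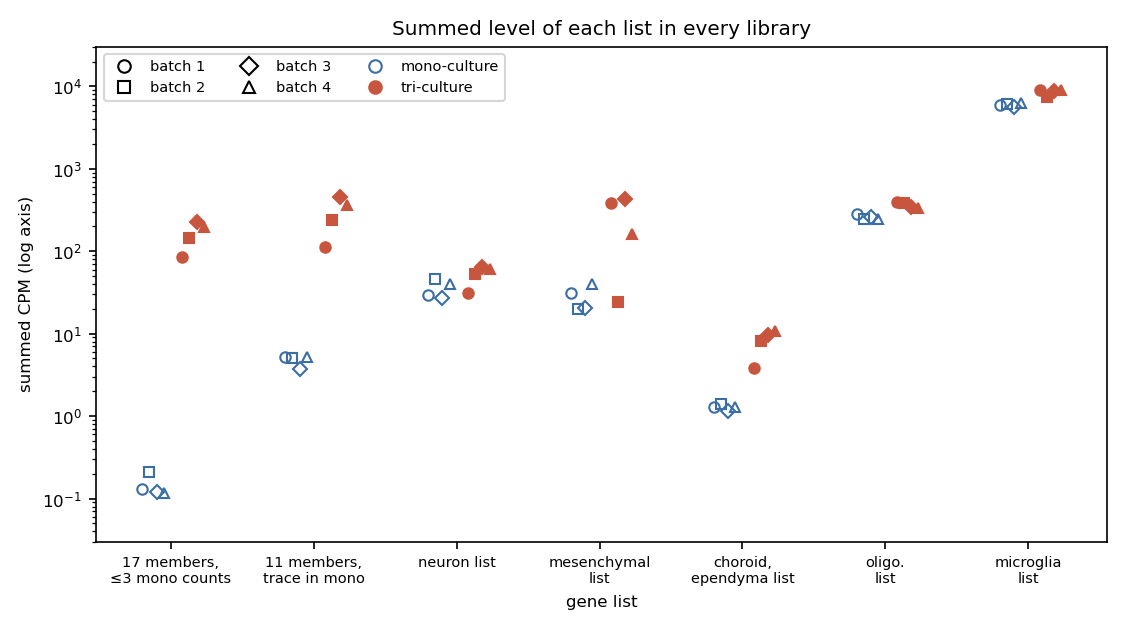
The vertical log axis is the summed CPM of a gene list in each library; open symbols are mono-culture, filled symbols tri-culture, and shapes give the batch. The absent and trace lists stand at up to 5.27 CPM in mono-culture and at 84.2 CPM or more in tri-culture, with batch 1 lowest there, while the mesenchymal list is lowest in batch 2.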

How the data were processed

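Bulk RNA-seq of 8 libraries was analysed. The deposited values are read counts for each gene. The submitters' processing notes list HISAT2 2.1.0, featureCounts 2.12.3 and the build GRCh38 for the authors' counts; the sources used here do not give the annotation release or strand setting. A second deposited table, named TPM, was handled as a signal, since its library totals are not those of true TPM, and it served to compare genes and for 1 kind of alternative test.

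Symbols were found for 42163 of 78899 entries. Coordinates and exon overlaps are from GENCODE 29 (GRCh38). The test was the robust quasi-likelihood one of edgeR 4.0.16 in R 4.3.3, with group as its only term, TMM scaling and filterByExpr (minimum count 10, minimum total 15). Each SE was taken as the size of the log2 fold change over the root of F, an approximation. Simulated counts for the 16249 genes, 200 of them changed, tested the script: calls were made for 8 of 50 genes changed 1.5-fold, for 36 of 50 changed 2-fold, for 50 of 50 changed 4-fold, for 46 of 50 changed 8-fold and for 5 that were not changed. Intervals are exact (95%) and, like floors, cover counting error only.

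The genes, lists and classes were chosen with earlier results of these data known. All 41 genes may be named; of each other list up to 4 genes with the smallest adjusted p were named, and PTPRC, AIF1, CSF1R and ITGAM whatever their p. Other list genes, those at 0 among them, were named after their values were seen, as was the split by which group met the filter. Batch numbers 1 to 4 stand in the labels of both groups and were taken as pairs. Within a pair, departures from the 2 group means correlated across genes at 0.201, 0.143, 0.268 and 0.0885. Correlations between libraries of different number are not given, so these values do not tell whether the pairing matters. Replicates differed by more than sampling noise (chi-square per degree of freedom 9.43 to 67.2). The labels call the batches independent. Alternatives were other scaling, filters, DESeq2 1.42.0, limma 3.58.1 on the signal values, the batch block, summed entries, and libraries left out.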

Additional observations from a re-analysis of the deposited data

Results flagged for a closer look

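Among 4 libraries of a group, the highest or lowest library was checked for a gap to the nearest other that took up more of the whole range than Dixon's 95% critical value. Chance gives about 1 in 20 such gaps, 4.65 of the 93 groups checked, and 5 were found. HES5 in tri-culture had a gap of 0.935, from library 3 at 0.433 CPM, on 17 counts over the group. MT2A in mono-culture had a gap of 0.83, from library 4 at 0.880 CPM. The summed absent genes in mono-culture (0.868) stood out through library 2, at 0.207 CPM, and the summed trace genes (0.913) and both classes together (0.926) through library 3, the lowest.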

How the results depend on the processing

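Over 24 alternatives the number of genes of the set called higher ran from 28 to 34 (31 as reported), called lower from 2 to 4 (3), and called higher among the 13 expressed ones from 6 to 8 (8); all genes called ran from 3199 to 5787 (4373). Of 37 tested genes of the set 30 kept direction and call under every alternative in which they could be tested. The others were SLC1A2, SLC1A3, SOX9, SPARC, ALDOC, MT2A and DLL1. SPARC, which was not called, changed sign without mono-culture library 1 (log2 fold change 0.15) and without batch 1 (0.076); with 1 library left out it ran from -0.30 to 0.15, and the cause was not tested. Library size only moved the median log2 fold change of all genes from 0.02 to 0.12. With the batch as a block 30 genes of the set were higher and 3 lower, and SOX9 was the only gene of the set to lose its call. On the log2 scale of the signal values the pseudocount (0.1 or 1) shrinks the change of low genes, so that ALDH1L1 came to 0.35 with a pseudocount of 1. A pair of alternatives, without tri-culture libraries 3 and 4 or without 1 and 2, were chosen after seeing the data. Without 3 and 4, SOX9 (adjusted p = 0.283) and DLL1 (0.204) lost their calls. Without 1 and 2, SLC1A2 was called higher (0.00196), and MT2A (0.425), DLL1 (0.0512) and ALDOC (0.0659) lost theirs. Depth limits HES5, GJB6 and EMX2, whose levels lie at or near the floor.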
